A study of Mus musculus with 14 samples.

Results

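Genes that mark hepatocytes around the central vein or answer to Wnt signalling were followed in mouse liver, 10 in all: Glul, Oat, Slc1a2, Rhbg, Axin2, Lgr5, Tbx3, Rnf43, Znrf3 and Lect2. They were taken from a list of names, not by a threshold on their values, and all 10 were among the 24411 genes of the count files. Of these 10, 9 had enough reads to be tested among 9644 genes, and Rhbg did not. The livers came from male littermates aged 5 to 7 months that carried floxed Rbbp5 alleles in every group. Mice without the Alb-Cre transgene are called WT, and mice with 1 copy of it, whose albumin promoter drives Cre recombinase in hepatocytes, are called LKO. Each genotype received an intraperitoneal injection of tunicamycin at 0.05 mg/kg in 500 µl, or its vehicle, 3% DMSO in PBS, and livers were taken 8 h later. Tunicamycin blocks N-linked glycosylation and so stresses the endoplasmic reticulum (ER), and Rbbp5 encodes a core subunit of the COMPASS family of histone H3 methyltransferases. WT had 3 libraries with vehicle and 3 with tunicamycin, and LKO had 4 of each. The labels do not say whether each library is a mouse of its own, so p-values measure only the spread between these samples.

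Liver lobules are zoned, with blood running from the portal triad to the central vein. Endothelial cells of the central vein release Wnt ligands and R-spondin 3, which keep beta-catenin active in the hepatocytes next to them. Those cells capture the ammonium left over by the periportal urea cycle and fix it into glutamine. Axin2, Lgr5, Rnf43 and Znrf3 are general Wnt target genes whose products feed back on the pathway, and Tbx3 and Lect2 are beta-catenin targets of the liver.

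Reads on the genes' own strand numbered from 6507018 to 13519421 per library, and from 1704479 to 3551398 without the ribosomal RNA gene Rn45s. That gene alone held from 72.5 to 75.5% of these reads. The counts of LKO vehicle libraries 3 and 4 were nearly within counting error of each other (chi-square of 1.12 per degree of freedom, against 3.05 to 25.5 for the other 17 pairs within groups). They were summed as 1 sample, called LKO vehicle 3+4, which left 13 samples. Hepatocyte markers were abundant in every sample, with a summed level of 23410 to 36540 CPM over 10 genes. CPM are counts per 1e6 reads after TMM scaling, with the Rn45s reads included, so they are lower than values per read outside Rn45s. Rbbp5 (chromosome 1, 132477365 to 132505659, mm10) stood at 4.07 to 6.41 CPM in WT vehicle and 5.03 to 5.71 in WT tunicamycin, against 1.90 to 4.15 in LKO vehicle and 2.06 to 3.46 in LKO tunicamycin. The library labelled LKO vehicle 1, at 4.15 CPM, lay within the range of WT vehicle, so the main values that rest on LKO vehicle are also given without it.

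Scaled for transcript length, Glul and Oat led, and the Wnt feedback genes and Rhbg came last. In the FPKM values deposited by the authors (fragments scaled by transcript length and library depth), the median level over the 13 samples was 37.5 for Glul, 29.1 for Oat, 6.29 for Lect2 and 6.003 for Slc1a2. It was 0.777 for Tbx3, 0.513 for Znrf3, 0.321 for Rnf43, 0.220 for Lgr5, 0.169 for Axin2 and 0.112 for Rhbg. Only 2 neighbours in this order were separate over the 13 samples: every value of Oat lay above every value of Lect2, and every value of Slc1a2 above every value of Tbx3. The other neighbours overlapped in range. Among the 6 lowest genes, every value of Tbx3 and of Znrf3 lay above every value of Lgr5, Axin2 and Rhbg. Znrf3 was nevertheless above Rnf43, the other membrane ubiquitin ligase of the pathway, in 13 of 13 samples.

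**Figure D1:**
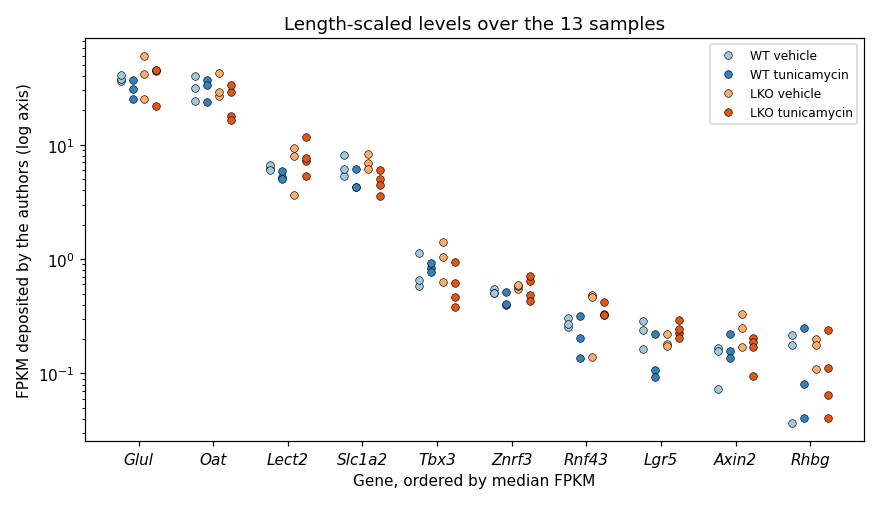
FPKM deposited by the authors (log axis) of each gene in the 13 samples, coloured by group, with genes ordered by their median. Glul and Oat sit highest, between 16.5 and 59.4, and Lgr5, Axin2 and Rhbg lie below 0.34 in every sample.

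Glul (chromosome 1, 153899944 to 153909723, mm10) encodes glutamine synthetase, which joins ammonium to glutamate in the innermost ring of pericentral hepatocytes. Its level was 181, 197 and 210.3 CPM in WT vehicle 1 to 3, and 161, 217 and 147 CPM in WT tunicamycin 1 to 3. In LKO it was 126, 299 and 207 CPM in LKO vehicle 1, 2 and 3+4, and 232, 237, 105 and 221 CPM in LKO tunicamycin 1 to 4. WT vehicle was tight, whereas both LKO groups spanned more than the whole WT range, and no pair of groups was separate. The log2 fold change of LKO against WT with vehicle was 0.10 ± 0.29 (SE), with a 95% interval from -0.51 to 0.72 and an adjusted p of 0.971 in edgeR's quasi-likelihood test. It became -0.24 without LKO vehicle 2 and 0.36 without the library labelled LKO vehicle 1. Tunicamycin gave -0.16 ± 0.29 in WT (adjusted p 0.847) and -0.08 ± 0.27 in LKO (adjusted p 0.941), both by edgeR. The LKO value changed sign, to 0.25 without LKO vehicle 2 and 0.13 without LKO tunicamycin 3. Omitting the library labelled LKO vehicle 1 gave -0.35.

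Oat (chromosome 7, 132557478 to 132576398) encodes ornithine aminotransferase, which turns ornithine toward glutamate beside glutamine synthetase. Its level was 108, 156 and 188 CPM in WT vehicle, and 109, 200.2 and 172 CPM in WT tunicamycin. It was 122, 187 and 131 CPM in LKO vehicle, and 79.5, 141, 72.0 and 146 CPM in LKO tunicamycin. LKO tunicamycin 1 and 3 held the 2 lowest values of all 13 samples, and the other samples of that group lay within the WT range. After tunicamycin the LKO level was lower than WT by a log2 fold change of -0.55 ± 0.27 (SE, 95% interval -1.12 to 0.02), with an edgeR adjusted p of 0.335. Tunicamycin in LKO gave -0.42 ± 0.27 (edgeR adjusted p 0.582), and -0.53 without the library labelled LKO vehicle 1.

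Slc1a2 (chromosome 2, 102658659 to 102790784) encodes the glutamate transporter GLT-1, which pericentral hepatocytes use to take up glutamate. Its level was 105, 129.5 and 163 CPM in WT vehicle and 86.4, 141 and 77.6 CPM in WT tunicamycin. It was 129, 159 and 121 CPM in LKO vehicle and 97.0, 123, 71.5 and 87.3 CPM in LKO tunicamycin. The means were lower after tunicamycin in both genotypes, but 1 tunicamycin sample of each genotype, number 2, reached into the vehicle range. The log2 fold change with tunicamycin was -0.38 ± 0.23 (SE) in WT and -0.53 ± 0.21 in LKO, with edgeR adjusted p of 0.477 and 0.343. The LKO value had an unadjusted p of 0.0255 and a 95% interval from -0.98 to -0.07 in the same edgeR fit, and it was -0.57 without the library labelled LKO vehicle 1. The genotypes differed little, with a log2 fold change of 0.04 ± 0.23 with vehicle and -0.10 ± 0.22 after tunicamycin.

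Rhbg (chromosome 3, 88242874 to 88254709), a membrane channel for ammonium and ammonia, had from 1 to 15 reads per sample, too few for the test. LKO tunicamycin 1, 2 and 3 had 2, 2 and 3 reads and LKO tunicamycin 4 had 11, while WT vehicle 1 to 3 had 5, 5 and 7. No comparison of Rhbg was detectable at this depth: without a filter on low counts, the 95% intervals of its log2 fold changes reached from -1.70 to 0.36 for tunicamycin in LKO and from -0.91 to 1.22 for LKO against WT with vehicle.

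Lect2 (chromosome 13, 56542464 to 56548502) encodes a protein that hepatocytes secrete into blood. Its level was 10.9, 13.2 and 11.7 CPM in WT vehicle and 10.0, 11.997 and 13.4 CPM in WT tunicamycin. It was 6.52, 17.5 and 15.2 CPM in LKO vehicle and 15.1, 16.4, 9.58 and 19.98 CPM in LKO tunicamycin. The 6 WT samples lay close together, and the LKO samples lay on both sides of them: 5 of the 7 were above every WT sample and 2, LKO vehicle 1 and LKO tunicamycin 3, below. LKO against WT gave a log2 fold change of 0.17 ± 0.28 (SE) with vehicle and 0.37 ± 0.27 after tunicamycin, with edgeR adjusted p of 0.930 and 0.553. Without the library labelled LKO vehicle 1 the vehicle value was 0.45, and without LKO vehicle 2 it was -0.08.

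Promoter letters are shown for the core motif of the TCF/LEF factors that carry beta-catenin to DNA, because the genes are grouped by that pathway. CTTTGA and CTTTGT were searched on both strands in the 250 bases before the gene start in RefSeq's promoters (GRCm38.p6, the mm10 build). Entries were found for 6 of the 10 genes, Glul, Oat, Slc1a2, Axin2, Rnf43 and Lect2, with 7 starts in all. The motif was in 2 of the 7, against 27.6% of all 32851 promoters searched. The capitals mark the motif, and TCAAAG is CTTTGA read on the other strand.
Lect2, chr13:56548552-56548581, minus strand: tgcttctccagaTCAAAGgctttggccggc
Slc1a2, chr2:102706220-102706249, plus strand: agaagagggacaTCAAAGgccccaaatggt
Slc1a2, chr2:102706349-102706378, plus strand: agcatgtgacttCTTTGAcatcaaaacact
The first base of the motif lay 31 bases before the start in Lect2, and 206 and 77 bases before it in Slc1a2, whose RefSeq start used here lies inside the gene span given above. The second Slc1a2 stretch overlaps an exon and its UTR in the GENCODE annotation. A match is a run of letters only.

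Axin2 (chromosome 11, 108920349 to 108950783) encodes a scaffold of the complex that destroys beta-catenin. It had from 4 to 40 reads per sample. Its level was 1.44, 1.54 and 0.583 CPM in WT vehicle and 2.06, 1.46 and 1.54 CPM in WT tunicamycin. It was 1.07, 2.92 and 2.08 CPM in LKO vehicle and 1.87, 1.69, 0.713 and 1.41 CPM in LKO tunicamycin. LKO vehicle 2 and 3+4 were the highest of the 13 samples, while LKO vehicle 1 was below 2 of the WT vehicle samples. The log2 fold change of LKO against WT with vehicle was 0.79 ± 0.41 (SE, 95% interval -0.07 to 1.65, edgeR adjusted p 0.630). It was 1.02 without the library labelled LKO vehicle 1 and 0.46 without LKO vehicle 2. Tunicamycin gave 0.49 ± 0.46 in WT and -0.59 ± 0.36 in LKO. The difference between these effects, the interaction, was -1.08 ± 0.58 (edgeR adjusted p 0.981). Without the library labelled LKO vehicle 1, the effect in LKO was -0.83 (unadjusted p 0.027, adjusted p 0.449 in edgeR) and the interaction -1.30 (unadjusted p 0.0284, adjusted p 0.997 in edgeR).

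Lgr5 (chromosome 10, 115450311 to 115587780) encodes a receptor for R-spondins. It had from 9 to 37 reads per sample. Its level was 2.75, 2.82 and 2.04 CPM in WT vehicle and 1.24, 3.08 and 1.54 CPM in WT tunicamycin. It was 1.90, 2.70 and 2.08 CPM in LKO vehicle and 3.33, 3.25, 2.45 and 2.497 CPM in LKO tunicamycin. WT tunicamycin 1 and 3 were the lowest of the 13 samples, and WT tunicamycin 2 was among the 3 highest. LKO against WT after tunicamycin gave a log2 fold change of 0.57 ± 0.30 (SE, 95% interval -0.06 to 1.197, edgeR adjusted p 0.369). Omitting WT tunicamycin 2 gave 1.04, and omitting WT tunicamycin 1 gave 0.31.

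Rnf43 (chromosome 11, 87662722 to 87735539) and Znrf3 (chromosome 11, 5276324 to 5444847) encode ubiquitin ligases that remove Wnt receptors from the cell surface. Rnf43 ranged from 2.14 to 5.09 CPM, and both extremes lay in LKO vehicle, in samples 3+4 and 1. Its largest log2 fold change in a pairwise comparison was -0.29 ± 0.33 (SE), for tunicamycin in WT, with an edgeR adjusted p of 0.739. Znrf3 was the steadiest of the 10 genes, from 5.23 to 9.34 CPM. Its WT vehicle and LKO vehicle samples lay between 6.71 and 8.13 CPM. The Znrf3 log2 fold change of LKO against WT with vehicle was 0.05 ± 0.18, with a 95% interval from -0.33 to 0.42 (edgeR adjusted p 0.981).

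Tbx3 (chromosome 5, 119670669 to 119684724) encodes a T-box transcription factor. Its level was 10.8, 6.02 and 6.85 CPM in WT vehicle and 9.22, 11.03 and 8.64 CPM in WT tunicamycin. It was 10.1, 14.1 and 6.23 CPM in LKO vehicle and 4.26, 9.37, 3.87 and 5.86 CPM in LKO tunicamycin. LKO tunicamycin 1, 3 and 4 were the lowest of the 13 samples, and LKO tunicamycin 2 stood among the WT tunicamycin samples. Tunicamycin in LKO gave a log2 fold change of -0.80 ± 0.29 (SE, 95% interval -1.42 to -0.18), with an unadjusted p of 0.0150 and an adjusted p of 0.307 in edgeR. It passed without a filter on low counts, at -0.81 (edgeR adjusted p 0.048), where 153 of 16251 genes were called against 3 of 9644 with the filter. The value was -0.45 without LKO vehicle 2 (edgeR adjusted p 0.571). Without the library labelled LKO vehicle 1 it stayed at -0.80 (edgeR adjusted p 0.449). LKO against WT after tunicamycin gave -0.73 ± 0.32, with an unadjusted p of 0.0334 and an edgeR adjusted p of 0.270. The interaction stood at -1.07 ± 0.44, with an unadjusted p of 0.0270 and an edgeR adjusted p of 0.935.

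**Figure D2:**
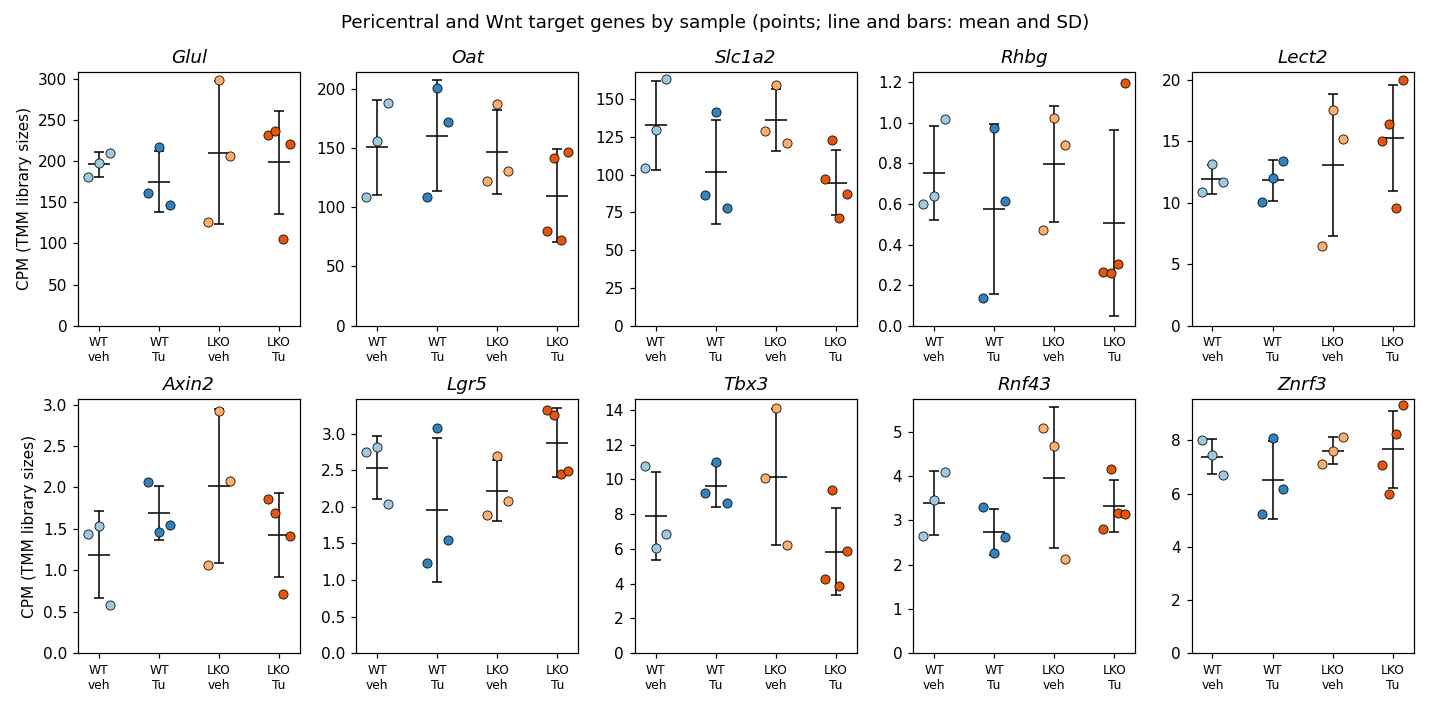
CPM of each gene in the 13 samples by group (veh, vehicle; Tu, tunicamycin), with the mean and SD as a line and bars, on axes that start at 0. The groups overlap in each panel, and for Glul, Lect2, Tbx3 and Rnf43 the LKO samples spread beyond the WT samples on both sides.

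Set side by side, the 5 comparisons gave no change in any of the 9 tested genes that passed correction. The threshold for a call was 0.05 on edgeR's quasi-likelihood p, adjusted by the Benjamini-Hochberg method across the 9644 genes. With tunicamycin in WT, 0 of 9 were called, where 0.363% of all genes were, and 0 of 9 had an unadjusted p under 0.05 (14.8% of all genes). Without WT tunicamycin 3 it was also 0 of 9 called, where 615 of 9941 genes were. In LKO, tunicamycin gave 0 of 9 called (0.0311% of all genes), with Slc1a2 and Tbx3 at an unadjusted p under 0.05 (12.2% of all genes). That count of 2 was 0 without LKO vehicle 2 and also without LKO tunicamycin 3, and 3 without the library labelled LKO vehicle 1. LKO against WT gave 0 of 9 called with vehicle (0.0415% of all genes) and 0 of 9 after tunicamycin (0.861% of all genes). At an unadjusted p under 0.05 there were 0 of 9 with vehicle (8.15% of all genes) and 1 of 9 after tunicamycin, Tbx3 (15.8% of all genes). The vehicle count was 1 without the library labelled LKO vehicle 1 (Axin2, unadjusted p 0.0174 in edgeR) and 2 without LKO vehicle 3+4. The interaction gave 0 of 9 called (0% of all genes) and 1 of 9 at an unadjusted p under 0.05, Tbx3 (4.91% of all genes). DESeq2 also called 0 members in each comparison, as did limma on the FPKM values. With tunicamycin in WT, DESeq2 gave no adjusted p for Axin2, Lgr5 and Rnf43, so it could not call them there. One limma setting, with a mean FPKM of at least 1, held only 4 members.

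The CPM values of the groups overlapped for each of the 9 genes in all 4 pairwise comparisons. Among all genes tested, groups did not overlap for 17.3% with tunicamycin in WT, 11.6% in LKO, 15.1% between genotypes with vehicle and 12.9% after tunicamycin. The median log2 fold change of the 9 genes was -0.16 with tunicamycin in WT and -0.21 in LKO, beside 0.01 and 0.00 over all genes. In each, 3 of 9 were above 0, where 51.7% and 50.8% of all genes were. The WT median was -0.06 without WT tunicamycin 1 and -0.37 with total count scaling, where the median over all genes was -0.18. The LKO median was -0.02 without LKO vehicle 2 and -0.49 without LKO vehicle 3+4. Omitting the library labelled LKO vehicle 1 took it to -0.35, with 1 of 9 above 0. Between genotypes it was 0.10 with vehicle (7 of 9 above 0, against 50.9% of all genes) and 0.18 after tunicamycin (5 of 9 above 0, against 48% of all genes), beside 0.00 and -0.01 over all genes. Without LKO vehicle 2 the vehicle direction turned, to 2 of 9 above 0 and a median of -0.08. Comparisons that share a group share its samples, so these medians are not independent of each other. In the interaction 5 of 9 were above 0, where 46.5% of all genes were, and 3 of 9 without the library labelled LKO vehicle 1. The 95% intervals, without correction over all genes, reached from 0.34 to 0.97 on the log2 scale to either side of the pairwise values. Changes within the width of their own interval could not be told from 0 here. A change beyond its width was not thereby called. Tbx3 with tunicamycin in LKO, at -0.80 with an interval from -1.42 to -0.18, had an edgeR adjusted p of 0.307. In RNA from whole liver, fewer pericentral cells and less RNA per cell cannot be told apart.

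**Figure D3:**
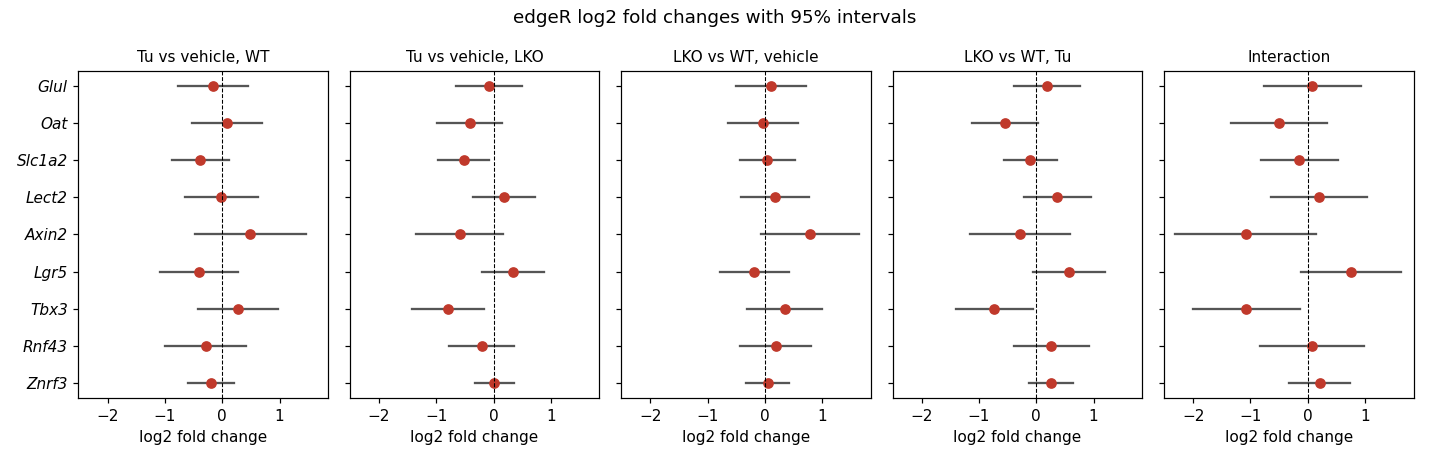
Log2 fold change (points) and 95% interval (lines) of the 9 tested genes from edgeR, for the 4 pairwise comparisons and the interaction (Tu, tunicamycin). Intervals leave out 0 for Slc1a2 and Tbx3 with tunicamycin in LKO, and for Tbx3 in LKO against WT after tunicamycin and in the interaction, before correction over all genes.

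Samples of one group differed from each other across several of the 10 genes at once. LKO tunicamycin 3 was below its group mean for 8 of 9 tested genes, with a median deviation of -0.48 on the log2 CPM scale, where the median over all genes in that sample was 0.00. It held the lowest value of the 13 samples for 4 of the 10 genes, Glul, Oat, Slc1a2 and Tbx3, while 7.80% of all genes were lowest there. LKO vehicle 2 was above its group mean for 8 of 9 genes, at a median of 0.38, and held the highest value for 3 of the 10, Glul, Axin2 and Tbx3, where 3.72% of all genes were highest. LKO tunicamycin 4 was also highest for 3 of the 10, Rhbg, Lect2 and Znrf3 (5.59% of all genes), and WT tunicamycin 1 lowest for 3, Rhbg, Lgr5 and Znrf3 (10.4% of all genes). LKO tunicamycin 2 was above its group mean for 8 of 9, at a median of 0.32, and WT tunicamycin 2 for 7 of 9, at a median of 0.33. In the library labelled LKO vehicle 1, 7 of 9 were at or below the group mean, with Lect2 at -0.86, Axin2 at -0.71 and Glul at -0.65. Lect2, Glul and Axin2 thus stood low together in LKO vehicle 1 and in LKO tunicamycin 3, at -0.61, -0.84 and -0.75 in the latter.

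**Figure D4:**
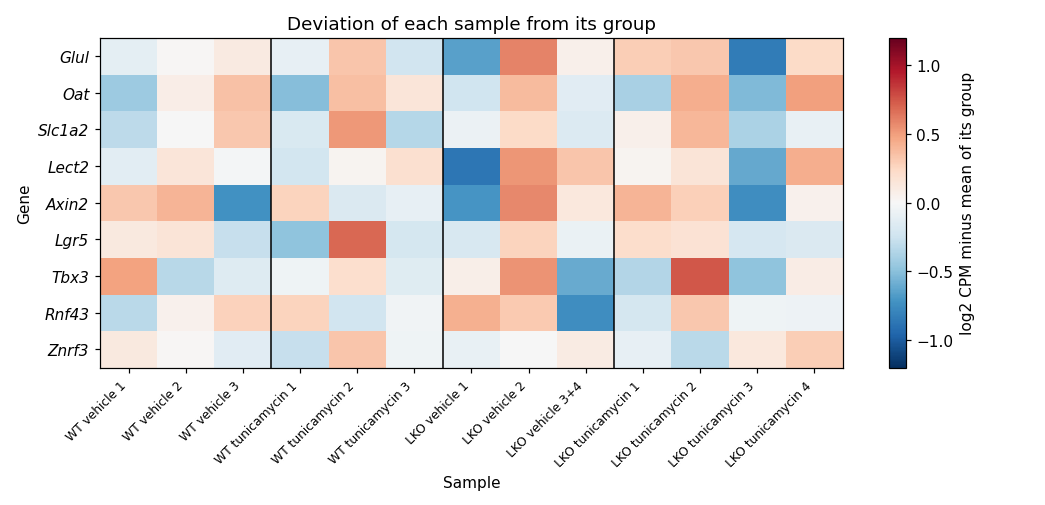
Log2 CPM of each tested gene in each sample minus the mean of the sample's group, with red above and blue below that mean and black lines between groups. LKO vehicle 2 is red and LKO tunicamycin 3 blue for 8 of the 9 genes each.

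Over the 13 samples, Lect2 was the member whose log2 CPM followed Glul most closely (Pearson r 0.773), followed by Slc1a2 (0.592) and Axin2 (0.559), while Rnf43 (0.0234) and Znrf3 (0.0962) did not follow it. Among other tested genes, those most like Glul included Cfl1 (0.900), Slc46a3 (0.868), Nxpe2 (0.826) and Lipo1 (0.812). Oat was followed among the members by Slc1a2 (0.635) and Tbx3 (0.597), and outside them by Igfbp4 (0.830), Nck1 (0.825), Sephs2 (0.819), Hat1 (0.806) and Prr3 (0.790). These values are descriptions of 13 shared libraries, chosen from the highest of all genes tested.

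The pathway upstream of the 10 genes was low in reads at its ligands and well covered further down. Of 25 ligand, R-spondin and secretion genes, 3 were tested, Wnt5b, Rspo3 and Wls, and 9 had 0 reads in every sample. Rspo3, the R-spondin of the central vein, had from 8 to 27 reads per sample (0.917 to 3.38 CPM), Wnt2 from 1 to 14 reads and Wnt9b from 0 to 6. The 25 genes summed to 5.03 to 7.58 CPM in WT vehicle, 4.79 to 7.57 in WT tunicamycin, 5.81 to 7.52 in LKO vehicle and 5.71 to 11.5 in LKO tunicamycin. Of the receptors, 10 of 17 were tested and 0 called in each of the 5 comparisons by edgeR. The largest differences between LKO and WT after tunicamycin among the better covered receptors (mean log2 CPM of 2 or more) were 0.28 ± 0.18 (SE) for Lrp5 and -0.16 ± 0.13 for Ryk. Of the destruction complex and its relays, 17 of 18 were tested and 0 called, with Axin1 at -0.49 ± 0.18 and Dvl3 at -0.26 ± 0.19 in that comparison. Axin1, the constitutive counterpart of Axin2, stood at 5.56 to 6.19 CPM in WT tunicamycin and 3.33 to 4.55 CPM in LKO tunicamycin, so those groups did not overlap (12.9% of all genes), and its edgeR adjusted p was 0.207. Of the nuclear cofactors, 14 of 18 were tested and 0 called, with Tle4 at 0.28 ± 0.26 and Tcf7l2 at 0.24 ± 0.17.

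Of the secreted Wnt inhibitors and other feedback genes, 5 of 18 were tested, Dkk3, Notum, Tnfrsf19, Ccnd1 and Myc (Notum and Tnfrsf19 also stand in the pericentral list), and 0 were called in each comparison. Of the genes that passed the filter on low counts, all 5 were above 0 in LKO against WT after tunicamycin (48% of all genes). Their median log2 fold change was 0.97, the value of Ccnd1 itself, beside -0.01 over all genes. In edgeR 3 of 5 had an unadjusted p under 0.05 (15.8% of all genes). Dkk3, Myc and Tnfrsf19 were sparse, with median levels of 1.02, 1.30 and 1.43 CPM. The filter works by group, so a sparse gene can pass through the group where it is high, and these counts only describe the 5 genes. In DESeq2, which held 16 genes of the list with the sparse ones among them, 10 were above 0 and 3 below, at a median of 0.36. Ccnd1, which encodes cyclin D1, averaged 4.66 ± 0.591 CPM with vehicle and 10.01 ± 5.16 CPM with tunicamycin in WT (SD, n = 3 each). Its LKO means were 13.1 ± 4.53 CPM with vehicle (SD, n = 3) and 19.3 ± 4.08 CPM with tunicamycin (SD, n = 4). Its LKO vehicle samples, 9.36 to 18.1 CPM, lay above its WT vehicle samples, 4.07 to 5.25 CPM, where 15.1% of all genes had groups without overlap. Ccnd1 was not called in that comparison. After tunicamycin its log2 fold change of LKO against WT was 0.97 ± 0.28 (SE, edgeR adjusted p 0.117).

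Other pericentral genes were lower in LKO after tunicamycin at 2 of 27 tested members of a list of 29, where 0.55% of all genes were called lower, and 0 were called higher. Both encode cytochrome P450 enzymes of the Cyp2c family. Cyp2c37 went from 57.8 to 97.2 CPM in WT tunicamycin to 9.07 to 29.5 CPM in LKO tunicamycin, at -1.89 ± 0.30 on the log2 scale (SE, edgeR adjusted p 0.0122). Cyp2c29 went from 387 to 510.0 CPM to 174 to 240.0 CPM, at -1.11 ± 0.17 (edgeR adjusted p 0.0102). Both were called in 12 of 13 fits that left out 1 sample, and the exception was WT tunicamycin 1, without which both edgeR adjusted p were 0.0712. With vehicle the LKO samples were also below the WT samples without overlap (15.1% of all genes), at 26.4 to 51.0 against 90.9 to 106.9 CPM for Cyp2c37 and 251 to 360.4 against 425 to 455 CPM for Cyp2c29. The edgeR adjusted p was 0.260 for Cyp2c37 (log2 fold change -1.22 ± 0.31) and 0.359 for Cyp2c29 (-0.59 ± 0.18) with vehicle. The interaction was -0.68 ± 0.43 for Cyp2c37 (edgeR adjusted p 0.982) and -0.52 ± 0.25 for Cyp2c29 (edgeR adjusted p 0.968). Close copies exist in this family, and reads that matched more than 1 place were left out of the gene counts used here. The median of the 27 genes was -0.11 in LKO against WT after tunicamycin, beside -0.01 over all genes. With total count scaling it was 0.03, beside 0.14 over all genes. In the main fit it was -0.20 between genotypes with vehicle, -0.35 with tunicamycin in WT and -0.23 in LKO. Gstm3, a glutathione transferase, was at 1.49 ± 0.72 in LKO against WT after tunicamycin, with an edgeR adjusted p of 0.328.

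Of 30 periportal genes 29 were tested, and 1 was called in the same comparison. Asl, the urea cycle enzyme argininosuccinate lyase, was lower at -0.75 ± 0.17 on the log2 scale (SE, edgeR adjusted p 0.0459), while Cdh1 stood at 0.76 ± 0.26 (adjusted p 0.175). The call of Asl was kept in 2 of 13 fits that left out 1 sample, and with the replicate number as a block its edgeR adjusted p was 0.111. The median of the 29 was -0.17 beside -0.01 over all genes, with 24 below 0. With total count scaling 14 were below 0, at a median of 0.009 beside 0.14 over all genes. In the interaction 0 were called and 27 of 29 were below 0, at a median of -0.15 beside -0.02 over all genes. Again 14 were below 0 with total count scaling, at a median of 0.003 beside 0.13 over all genes. Among genes of glutamine, glutamate and ammonium handling, 15 of 24 were tested and 0 called in each comparison. Gpt2, an alanine aminotransferase, was at -0.37 ± 0.16 and Prodh, proline dehydrogenase, at -0.39 ± 0.23 in LKO against WT after tunicamycin.

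Of the markers of other liver cells, 0 were called by edgeR in each of the 5 comparisons (at most 0.861% of all genes). In edgeR, 5 of 10 tested stellate markers had an unadjusted p under 0.05 between genotypes with vehicle (8.15% of all genes). After tunicamycin it was 6 of 10 (15.8% of all genes), and 9 of 10 were above 0 in each. With tunicamycin in LKO it was 7 of 12 Kupffer cell markers (12.2% of all genes), with 12 above 0. Between genotypes with vehicle it was 0 of 12, with 4 above 0. The sums below are given without a test. The summed level of 12 stellate and fibroblast markers was 84.1 to 132 CPM in WT vehicle, 112 to 155 in WT tunicamycin, 140.2 to 194 in LKO vehicle and 129.6 to 207 in LKO tunicamycin. For 10 bile duct markers, of which 3 were tested, it was 11.5 to 15.6, 11.1 to 46.4, 21.6 to 60.7 and 42.1 to 116 CPM in the same order. Most of the higher sums was Spp1, which alone ran from 4.37 to 104.9 CPM over the 13 samples. Krt19, Krt7, Epcam, Cftr and Muc1 reached at most 0.949 CPM in any sample, so these sums do not describe the list as a whole. The 12 Kupffer cell markers summed to 72.0 to 83.5 CPM in WT vehicle, 76.2 to 100.7 in WT tunicamycin, 55.1 to 92.1 in LKO vehicle and 82.3 to 160.4 in LKO tunicamycin. Endothelial markers, the list that holds the ligand sources, summed to 152 to 168.5, 152 to 161, 134 to 198 and 139 to 172 CPM in the same order. Lymphocyte markers, of which 8 of 10 were in the files, summed to 3.46 to 6.72 CPM. None of the markers present was at 0 in all 13 samples. Among the 10 hepatocyte markers, 1 was called in LKO against WT after tunicamycin, Hnf4a, at -0.54 ± 0.12 (SE, edgeR adjusted p 0.0405), and none in the other 4 comparisons. The Hnf4a call was kept in 4 of 13 fits that left out 1 sample, and its edgeR adjusted p with the replicate block was 0.108. The part of these cells in the values of the 10 genes was not tested.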

How the data were processed

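Polyadenylated liver RNA of 14 libraries was analysed from STAR gene counts. The deposited counts are whole reads per gene, unnormalized, in STAR's headerless gene count layout, whose columns ignore strand or take the gene's or the opposite strand. The submitters' processing notes name Trimmomatic, STAR, Cufflinks and mm10; versions and the annotation are not given in the sources used here. Reads on the gene's strand, from 99.5 to 99.6% of stranded reads, were used. The FPKM values come from a deposited table that the authors named so, with no method given in the sources used here beyond Cufflinks among the tools, and served to compare levels between genes and as an alternative; 24075 names with a single entry were kept. FPKM columns were matched to samples through the names of the count files (0 columns were unused).

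LKO vehicle libraries 3 and 4 were summed. Counts were fitted with edgeR 4.0.16 in R 4.3.3 (TMM, filterByExpr, 1 mean per group, 9 residual degrees of freedom, quasi-likelihood test) and Benjamini-Hochberg adjustment over 9644 genes; the script was tested on simulated data. Standard errors are the fold change divided by the square root of F. CPM values are scaled by TMM, and a prior count of 2 entered log2 CPM. limma 3.58.1 and DESeq2 1.42.0 served as alternatives. Reads are not independent molecules, so precision was taken from the spread between samples. Gene positions are from GENCODE M21 (mm10).

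The 10 genes and all lists were chosen with earlier results of these data known. Named genes were the 10 members, Rbbp5, each called gene of a list, the 2 genes of a list with the largest absolute log2 fold change in LKO against WT after tunicamycin with a mean log2 CPM not under 2, and the 5 genes most correlated with Glul and with Oat, of which 1 is not reported here. Ligands, tested feedback genes and list members outside this rule were named after their values were seen.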

Additional observations from a re-analysis of the deposited data

Results flagged for a closer look

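Only the LKO tunicamycin group, with 4 samples, was large enough for a check of single samples far from the rest, so each of the 10 genes was checked in that group, and 2 of the 10 checks stood out where chance gives about 1 in 20. Glul in LKO tunicamycin 3, at 105 CPM, lay far below the other samples of its group, which held 221 to 237 CPM. Rhbg in LKO tunicamycin 4, at 1.19 CPM, lay far above the others, and rests on 11 reads against 2 to 3.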

How the results depend on the processing

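Alternatives were 10 other settings and the omission of each of the 13 samples. No member was called in any comparison under any of these, with 1 exception: without a filter on low counts, 1 member was called with tunicamycin in LKO, Tbx3. That setting called 153 of 16251 genes in the same comparison, against 3 of 9644 in the main fit. Not every setting could call every member. DESeq2 gave no adjusted p for Axin2, Lgr5 and Rnf43 with tunicamycin in WT, and limma with a mean FPKM of at least 1 held 4 members. Of 45 log2 fold changes, 18, each at most 0.341 in size, changed sign somewhere, and none of these was called. With 1 sample omitted, other than LKO vehicle 3+4, LKO against WT with vehicle ranged from -0.24 to 0.36 for Glul, -0.26 to 0.14 for Oat, -0.12 to 0.21 for Slc1a2, -0.0071 to 0.63 for Tbx3, -0.016 to 0.32 for Rnf43, -0.025 to 0.099 for Znrf3 and -0.077 to 0.45 for Lect2. Tunicamycin in WT ranged from -0.12 to 0.30 for Oat and -0.12 to 0.094 for Lect2, and in LKO from -0.35 to 0.25 for Glul, -0.094 to 0.12 for Znrf3 and -0.10 to 0.43 for Lect2. LKO against WT after tunicamycin ranged from -0.27 to 0.21 for Slc1a2, and the interaction from -0.17 to 0.42 for Glul, -0.31 to 0.17 for Slc1a2, -0.050 to 0.29 for Rnf43 and -0.072 to 0.44 for Lect2. Without LKO vehicle 3+4, LKO against WT with vehicle was at 0.035 for Oat, -0.0069 for Znrf3 and 0.53 for Rnf43, and the interaction at -0.27 for Rnf43. Total count scaling moved the all-gene median to -0.18 with tunicamycin in WT, 0.14 between genotypes after it and 0.13 in the interaction. It gave -0.11 for Oat with tunicamycin in WT, 0.056 and 0.013 for Slc1a2 in LKO against WT after tunicamycin and in the interaction, and -0.023 for Znrf3 with tunicamycin in LKO. Znrf3 in that comparison was also at -0.0015 without a filter, -0.00171 with 14 libraries, -0.010 with log2(FPKM + 1) and -0.036 with log2(FPKM + 0.1). On the FPKM scales Oat was at -0.0256 and -0.0261 with tunicamycin in WT and 0.024 and 0.025 in LKO against WT with vehicle, and Rnf43 at 0.061 with tunicamycin in LKO. The cause of these changes was not tested. With the replicate number as a block, Znrf3 with tunicamycin in LKO was at -0.096 and 0 members were called in each comparison; over all genes, the count of calls went from 35 to 38 and from 3 to 5 with tunicamycin in WT and LKO, and from 4 to 0 and from 83 to 32 between genotypes with vehicle and after tunicamycin. Deviations of same-numbered samples correlated from -0.12 to 0.12 over 12 pairs, and 11 of 24 samples compared correlated best with their own number. Whether the numbers pair the samples was not tested beyond this. Over all genes, the calls with tunicamycin in WT and between genotypes after it went from 35 and 83 to 152 and 137 in DESeq2, 148 and 164 with total count scaling, 289 and 261 without a filter, and 4 and 22 with log2(FPKM + 1). Omitting WT tunicamycin 3 took the calls with tunicamycin from 35 to 615 in WT and from 3 to 67 in LKO, of 9941 genes. Omitting WT tunicamycin 1 left 0 in WT. In chi-square per degree of freedom, WT tunicamycin 3 stood at 25.1 from WT tunicamycin 1 and 25.5 from WT tunicamycin 2. Between WT tunicamycin 1 and 2 it was 6.13. The calls of Cyp2c29, Cyp2c37, Asl and Hnf4a, tried after seeing the data, held in 8, 7, 5 and 5 of the 10 other settings, and none changed sign. Depth limits Rhbg, Axin2 and Lgr5, with at most 15, 40 and 37 reads per sample.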
